A study of Mus musculus with 16 samples.

Results

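The nuclei described here are astrocyte nuclei of the mouse hippocampus in which no Gfap transcript was counted. They numbered 10779 of the 15218 nuclei that passed an astrocyte gate, out of 147873 nuclei in all. A barcode counted as a nucleus with at least 500 unique molecular identifiers (UMIs, each standing for 1 captured transcript), at least 300 genes and at most 5% of UMIs from mitochondrial genes. It passed the gate with at least 4 UMIs summed over the astrocyte genes Slc1a3, Gja1, Plpp3, Acsbg1 and Gli3. It also had to hold at most 1 UMI of Slc17a7, Gad1 and Gad2 together (neurons), at most 1 of Mog and Mag (oligodendrocytes), at most 1 of Pdgfra and Vcan (oligodendrocyte precursors) and at most 1 of Inpp5d and Csf1r (microglia). Gated nuclei with 0 Gfap UMIs were called Gfap-negative and the other 4439 Gfap-positive. These genes chose the nuclei, so their levels are no result. The share of gated nuclei without Gfap, given below by group, is a reading of Gfap counts alone.

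The study sequenced RNA of single hippocampal nuclei in 16 libraries from female mice at 9 months of age. The mice were of genotype Ch25h+/+ or Ch25h-/- and of tau state Tau- or Tau+, which gave 4 groups of 4 libraries. Ch25h encodes an enzyme that hydroxylates cholesterol and is itself induced by interferon, and the title of the study sets it between innate immune activation and tau pathology. The comparisons therefore ask what tau changed in these nuclei in each genotype, and whether losing Ch25h changed them in either tau state. The labels name neither the tau transgene nor the promoter that drives it, and they do not say which part of Ch25h is missing in Ch25h-/- mice or whether tissue was pooled. P-values measure the spread between these libraries.

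Astrocytes clear glutamate and potassium from around synapses, couple to each other through gap junctions and supply lipids and metabolites to neurons. Gfap encodes an intermediate filament of the astrocyte cytoskeleton. Its transcript varies widely among resting astrocytes of the hippocampus and rises in reactive astrocytes, whose other known genes include Vim, Cd44, Serpina3n and the complement gene C4b. In a nucleus with few UMIs, a gene that is not expressed and a transcript that was not captured both give a count of 0, and these cannot be told apart here.

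The libraries held 51270831 to 84870650 UMIs and 8130 to 11654 nuclei each. They gave 416 to 1007 Gfap-negative astrocyte nuclei with a median of 2060 to 2885.5 UMIs per nucleus, against 2322.5 to 3265 in Gfap-positive nuclei. At most 1 barcode of a Gfap-negative nucleus was shared by any pair of libraries. Counts of the Ch25h transcript were as high in one labelled genotype as in the other. The nuclei of all types held 102 Ch25h UMIs in Ch25h+/+ Tau+ and 46 in Ch25h+/+ Tau-. They held 107 UMIs with tau and 89 without among mice labelled Ch25h-/-. The Gfap-negative nuclei themselves held 8, 1, 3 and 6 Ch25h UMIs in the same order. A tag that lies outside a deleted part does not check a deletion, so this neither bears out nor contradicts the labels. In every comparison below the genotype is the one labelled.

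The threshold cut through a continuous range. Among the Gfap-positive nuclei 2298 held a single Gfap UMI, 869 held 2 and 1272 held 3 or more. At the lower edge of the gate 846 Gfap-negative nuclei had a sum of exactly 4 UMIs over the gate genes, and another 1084 nuclei without Gfap had a sum of 3 and stayed outside. A further 2205 nuclei were lost to the limits on markers of other cell types. The median gate sum of the Gfap-negative nuclei was 8 to 13 UMIs per library.

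About 1 in 5 Gfap-negative nuclei did not look like plain astrocytes. Clustering gave 16 clusters, and 8 of them carried at least 3 markers of another cell class at 2-fold or more, or consisted of over 50% predicted doublets. These 8 clusters were set apart by a rule chosen after the data had been seen, in which markers of neural stem cells, many of which astrocytes share, were not counted. They held 2061 nuclei (19.1%), with 7.66% to 35.0% of the Gfap-negative nuclei of a library. Clusters 5 and 9 were led by genes of fibroblasts and the brain's coverings (Slc6a20a, Slc6a13, Ptgds, Slc47a1) and their share of Gfap-negative nuclei had a lowest, median and highest library of 1.85%, 3.62% and 11.2% in Ch25h+/+ Tau- and 13%, 15.7% and 26.5% in Ch25h+/+ Tau+. In Ch25h-/- it was 1.18%, 12% and 21.8% without tau and 5.41%, 12.5% and 20.4% with tau, which overlapped. Clusters 12, 14 and 16 carried ependymal or choroid plexus genes such as Dnah12, Cfap299 and Ttr, at means of 1.55% in Tau- and 2.96% in Tau+ libraries. Clusters 8 and 10 carried neuronal genes and cluster 15 oligodendrocyte genes, and 76.1%, 79.1% and 84.2% of their nuclei were predicted doublets. The remaining 8718 nuclei are called the retained Gfap-negative nuclei. Gfap-positive nuclei were placed with the cluster of their nearest Gfap-negative nuclei, and 4150 of them were retained.

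Marker levels were compared with and without these clusters as a description, since the same marker lists had set them apart. The summed level of 16 astrocyte genes that the gate did not use (Slc1a2, Aqp4, Aldh1l1, Glul, Slc7a10 and others) had a median over the 16 libraries of 18344 CPM (UMIs of a gene scaled to a common library total) in all Gfap-negative nuclei and 23871 CPM in the retained ones. The summed level of neuronal markers had a median of 2236.7 CPM in all Gfap-negative nuclei and 735.45 CPM in the retained ones. Markers of mural cells and fibroblasts had a lowest, median and highest library of 188.92, 421.49 and 766.7 CPM before and 160.9, 193.7 and 246.1 CPM after. Ependymal and choroid plexus markers had medians of 300 CPM before and 151 CPM after. Markers of microglia and macrophages, at medians of 115 and 117 CPM, did not fall. The results below are given for all Gfap-negative nuclei and for the retained ones.

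The 8 retained clusters differed in the astrocyte genes that led them, and this is a description, since the same genes defined the clusters. Cluster 1, of 2303 nuclei, was led by Slc7a10, a transporter of D-serine and other small neutral amino acids, with Fgf13 and the NMDA receptor subunit gene Grin2c. Cluster 2, of 1972 nuclei, was led by Erbb4, Lrig1, Rpe65 and the cytokine gene Il33. Cluster 3, of 1401 nuclei, was led by the synapse-related secreted factor Thbs4 and by Igfbp5. Cluster 6, of 850 nuclei, was led by Myoc, Tnc, Id3 and the water channel gene Aqp4, genes known from astrocytes at the brain surface and around vessels. Cluster 7 (738 nuclei) was led by Lama3, Aldh1a1 and Thrsp, and cluster 11 (140 nuclei) by Adgrv1 and Tfap2c, with 4 markers of neural stem cells at 2-fold or more.

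Among the retained clusters Gfap was missing most often in clusters 1 and 2. Of the gated nuclei placed in them, 78.2% and 79.9% were without Gfap, against 73.8% in cluster 4, 63.6% in cluster 3, 63.3% in cluster 11, 56.0% in cluster 7 and 47.8% in cluster 6. Cluster 4 (1203 nuclei) was led by mitochondrially encoded transcripts, and took a mean of 13.6% of Gfap-negative nuclei in Tau- libraries and 6.77% in Tau+ libraries. The tau states overlapped, at 7.61% to 27.3% in Tau- and 4.92% to 10.6% in Tau+ libraries. The 27.3% belonged to replicate 3 of Ch25h+/+ Tau-, which gave 21.4% of the cluster's nuclei. That library also had the highest median mitochondrial share of UMIs in Gfap-negative nuclei (0.237%). Cluster 13 was a small set of 111 nuclei led by the interferon-stimulated genes Ddx60, Trim30a, Oasl2 and Cxcl10. Of these nuclei 96 came from Tau+ and 15 from Tau- libraries, and replicate 1 of Ch25h+/+ Tau+ alone gave 35.1% of them. Only 36.2% of the gated nuclei placed there were without Gfap. The percents without Gfap by cluster pool the nuclei of all libraries, so they do not separate the cluster from tau state or library.

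**Figure D1:**
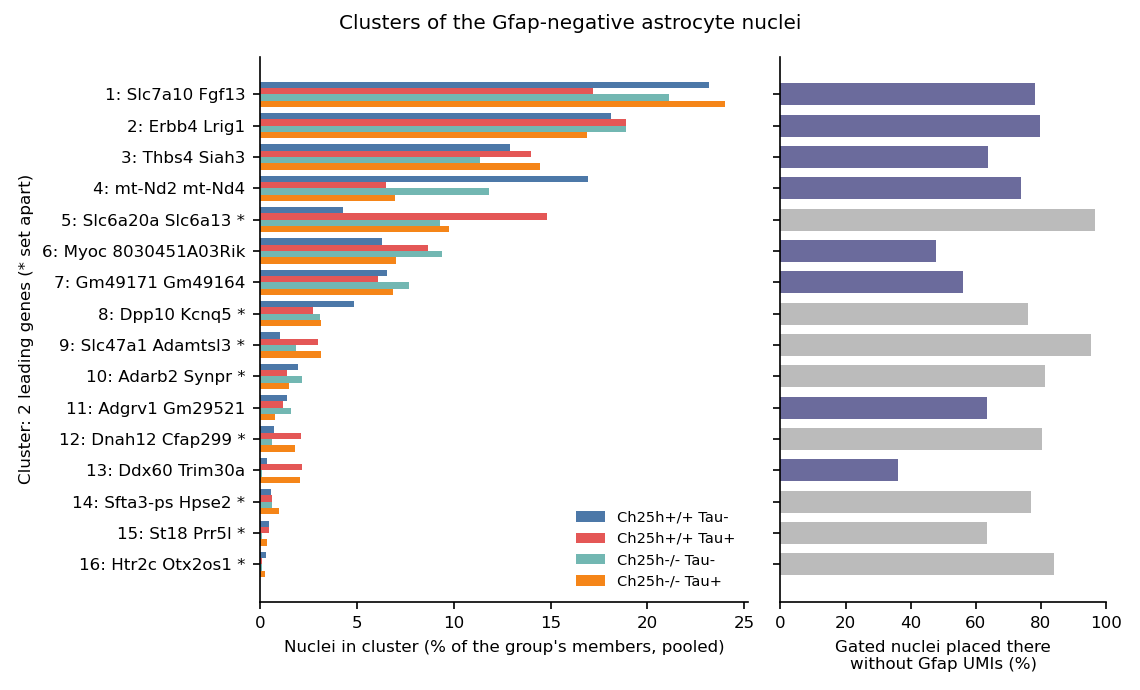
The 16 clusters of Gfap-negative astrocyte nuclei. The left panel gives the percent of each group's Gfap-negative nuclei in a cluster and the right panel the percent of gated nuclei placed there that had no Gfap UMI, with the clusters set apart marked by an asterisk and drawn in grey, and clusters 1 and 2 stand above clusters 3, 6 and 7 in the right panel.

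Over both genotypes the share of astrocyte nuclei without Gfap was lower with tau. Within each genotype the Tau+ and Tau- libraries did not overlap. This share counts detection of Gfap, the gene that split the nuclei, so its test speaks of Gfap alone. The share of gated nuclei without Gfap was 77.8%, 78.9%, 79.7% and 83.3% in the 4 Ch25h+/+ Tau- libraries, a mean of 79.9% ± 2.41 (SD, n = 4). In Ch25h+/+ Tau+ it was 49.5%, 56.4%, 56.7% and 73.3%, a mean of 59.0% ± 10.1 (SD, n = 4). All 4 libraries with tau lay below all 4 without it, and replicate 3 stood apart from the other Tau+ libraries. In Ch25h-/- Tau- the share was 74.9%, 78.4%, 82.1% and 83.2%, a mean of 79.6% ± 3.75 (SD, n = 4). In Ch25h-/- Tau+ it was 61.4%, 61.9%, 64.5% and 72.5%, a mean of 65.1% ± 5.15 (SD, n = 4), again without overlap.

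The fall over both genotypes was 17.7 points (two-sided exact permutation test within genotype over 4900 arrangements, p = 0.000408, adjusted p = 0.00408 over 10 share tests). Within a genotype the difference was -20.9 points in Ch25h+/+ and -14.5 points in Ch25h-/-. Both exact permutation tests gave p = 0.0286, the smallest that 4 against 4 allows, and an adjusted p of 0.0952. Among the retained clusters the fall was 20.7 points (adjusted p = 0.00408, exact permutation). Among all gated nuclei of at least 1000 UMIs, each thinned to 1000 UMIs, it was 12.1 points (adjusted p = 0.00816, exact permutation). After thinning the Ch25h-/- libraries overlapped, with 87.4% in replicate 3 of Tau+ and 86.7% in replicate 4 of Tau-. On the first principal component of gene expression, with group means taken out, replicates 1 and 2 separated from replicates 3 and 4. The separation held in all 16 libraries for the retained nuclei and in 14 of 16 for all Gfap-negative nuclei. The labels do not give a reason for it. The fall was 21.8 points among replicates 1 and 2 and 13.7 points among replicates 3 and 4.

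Other readings moved with this share. Excitatory neuron nuclei, which should lack Gfap, held a Gfap UMI in 0.458% to 3.15% of cases per library, with group means of 0.701% and 0.780% without tau and 2.08% and 1.30% with tau for Ch25h+/+ and Ch25h-/-. Their median depth was 7620 to 10944 UMIs, above that of the astrocytes. The part of this background in the tau difference of the share was not tested. As a share of all nuclei, the Gfap-negative astrocytes averaged 7.99% in Ch25h+/+ Tau-, 6.77% in Ch25h+/+ Tau+, 8.64% in Ch25h-/- Tau- and 5.73% in Ch25h-/- Tau+. The tau difference of -2.07 points over both genotypes did not pass the test (exact permutation p = 0.0555, adjusted p = 0.139). Ch25h loss moved the share of gated nuclei without Gfap by 6.11 points in Tau+ (exact permutation p = 0.314, adjusted p = 0.393) and by -0.287 points in Tau- (exact permutation p = 0.886), and the groups overlapped.

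**Figure D2:**
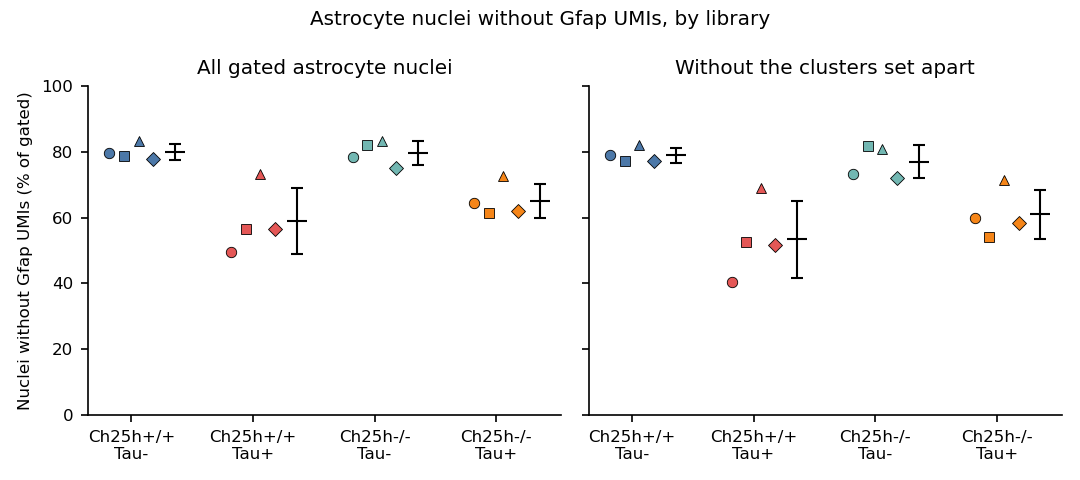
Percent of gated astrocyte nuclei with 0 Gfap UMIs in each library, by group, for all gated nuclei and for the retained clusters. Each symbol is a library (circle, square, triangle and diamond for replicates 1, 2, 3 and 4) and the bar with whiskers is the mean ± SD of 4 libraries. The Tau+ libraries lie below the Tau- libraries of the same genotype.

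Within the same libraries, Gfap-negative astrocytes held fewer transcripts of reactive genes such as Cd44 and Vim and of Myoc and Aqp4 than Gfap-positive astrocytes, and more of Slc7a10 and Gabbr2. UMIs were summed per library and side, and edgeR's quasi-likelihood test with the library as a block compared the sides, with Benjamini-Hochberg adjustment over all genes tested. All nuclei gave 1968 of 11373 genes past an adjusted p of 0.05 (17.3%) and the retained nuclei 1387 of 9361 (14.8%), of which 624 were higher and 763 lower in Gfap-negative nuclei. With upper-quartile scaling 757 were higher and 652 lower. With the Gfap-positive nuclei matched on UMIs, 1057 of 8866 genes passed. The values that follow are log2 fold changes, Gfap-negative over Gfap-positive, in the retained nuclei, each with its standard error.

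Of 50 listed reactive genes 19 had enough counts to be tested, and all 19 were lower in Gfap-negative nuclei, with a median of -1.10 against -0.0025 for all genes. A gene could enter the test through its level in Gfap-positive nuclei alone, so this count describes the tested genes and not the list. Cd44, the hyaluronan receptor, was lower by the most (-2.62 ± 0.23, adjusted p = 8.46e-08). The protease inhibitor gene A2m stood at -2.34 ± 0.21 (adjusted p = 1.76e-07) and Osmr, a receptor subunit for oncostatin M, at -1.83 ± 0.18 (adjusted p = 5.43e-07) and the filament gene Vim at -1.59 ± 0.17 (adjusted p = 3.41e-09). C4b, the complement component (chr17:34728380-34743882 in mm10), was at 22.8, 70.8 and 254 CPM in the lowest, median and highest library of Gfap-negative nuclei and at 72.9, 135 and 394 CPM in Gfap-positive nuclei. Its fold was -1.10 ± 0.08 (adjusted p = 1.03e-11). Stat3, the transcription factor that drives Gfap in reactive astrocytes, was lower by a smaller margin (-0.65 ± 0.06, adjusted p = 1.99e-12). The astrocyte lipoprotein gene Apoe differed least among those named (-0.18 ± 0.03, adjusted p = 2.07e-07), at 835, 3184 and 4179 CPM against 902, 3539 and 5272 CPM.

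Myoc, Aqp4, Nrp2, Id3 and Igfbp5, all among the genes that led clusters 3 and 6, were lower as well. Myoc and Id3 also belong to the list of reactive genes above, so their values are not separate from that count. Myoc (chr1:162639155-162649693 in mm10), which encodes the secreted protein myocilin, had a lowest, median and highest library of 4.63, 11.7 and 36 CPM in Gfap-negative nuclei and 36.9, 81 and 174 CPM in Gfap-positive nuclei. The ranges of the 2 sides did not overlap, and the fold was -2.54 ± 0.18 (adjusted p = 7.83e-09). Aqp4, the water channel of astrocyte endfeet, stood at 176, 259 and 381 CPM against 331, 505 and 638 CPM, a fold of -0.95 ± 0.05 (adjusted p = 1.89e-22). Nrp2, a semaphorin receptor, stood at 15.2, 25.9 and 47.7 CPM against 59.7, 94.9 and 159 CPM (-1.85 ± 0.13, adjusted p = 7.58e-10). Id3, a helix-loop-helix inhibitor downstream of BMP signals, stood at 78.8, 96.7 and 153 CPM against 182, 237 and 377 CPM (-1.10 ± 0.06, adjusted p = 2.73e-23). Igfbp5, which binds insulin-like growth factors, stood at 42.5, 67.6 and 90.2 CPM against 97.7, 147 and 175 CPM (-1.0 ± 0.06, adjusted p = 1.96e-23). For Nrp2, Id3 and Igfbp5 no library of Gfap-negative nuclei reached the lowest Gfap-positive library.

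Of 20 genes of glutamate, ion and water handling, 10 were higher in Gfap-negative nuclei and Aqp4 alone was lower, with a list median of 0.12. Of all genes tested 6.67% were higher and 8.15% lower. Slc7a10 (chr7:35186385-35201114 in mm10) had a lowest, median and highest library of 237, 281 and 355 CPM against 159, 194 and 255 CPM, a fold of 0.53 ± 0.04 (adjusted p = 1.73e-16). The GABA transporter gene Slc6a11 was higher at 0.49 ± 0.07 (adjusted p = 4.26e-05). It ranged over 226, 302 and 425 CPM against 143, 221 and 342 CPM, so its ranges overlapped. The potassium channel genes Kcnj16 (0.51 ± 0.10) and Kcnj10 (0.21 ± 0.06, adjusted p = 0.00922) and the gap junction gene Gjb6 (0.27 ± 0.05) were also higher. The glycine transporter gene Slc6a9 was higher at 0.53 ± 0.16 (adjusted p = 0.0118), and without replicate 4 of Ch25h+/+ Tau+ its adjusted p was 0.0881.

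Over all genes tested 6.67% were higher and 8.15% lower. Of 20 receptor genes tested 6 were higher, Grm5 and Gabrb1 were lower and 12 passed in neither direction (Grm5 at -0.71 and Gabrb1 at -0.08, the latter not past the threshold with matched UMIs). Gabbr2 (chr4:46662305-46991873 in mm10), a subunit of the GABA-B receptor, stood at 34.1, 61.1 and 133 CPM against 8.36, 26.6 and 57.9 CPM, a fold of 1.39 ± 0.10 (adjusted p = 2.9e-19). The AMPA receptor subunit gene Gria2 stood at 1638, 1900 and 2201 CPM against 1185, 1303 and 1802 CPM (0.52 ± 0.03, adjusted p = 1.16e-17). Unc13c, which encodes a vesicle priming protein, was higher at 1.66 ± 0.17 (adjusted p = 1.82e-07), with levels of 35.5, 57.7 and 117 CPM against 3.4, 20.4 and 33.4 CPM that did not overlap. For Gabbr2 and Gria2 the ranges overlapped. Il33, which encodes an alarmin cytokine, stood at 39.4, 55 and 68.7 CPM against 24.3, 27.9 and 52 CPM (0.89 ± 0.09, adjusted p = 9.45e-13). Rpe65, best known as a retinoid enzyme gene of the retinal pigment epithelium, had the largest positive fold among the genes named here (2.11 ± 0.18, adjusted p = 1.23e-14), and like Vim it had too few counts to be tested with matched UMIs. Of 28 regulators of astrocyte identity and region tested 7 were higher and 8 lower, beside the same 6.67% and 8.15% of all genes. The higher ones included Gli1 (1.63 ± 0.17, adjusted p = 3.37e-12), Ptch1 (0.56 ± 0.05) and Gli2 (0.23), and the lower ones Sox9. Gli1, Ptch1 and Gli2 act in hedgehog signalling, but they were picked from this list and no list of hedgehog genes was tested.

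Other lists moved in part or hardly at all. Their counts in the retained nuclei stand beside 6.67% of all genes tested that were higher and 8.15% that were lower. Of 21 genes of synapse formation and engulfment 10 were higher, among them the phagocytic receptor gene Mertk (0.27 ± 0.04) and its bridging ligand gene Mfge8 (0.52 ± 0.06), and Ncan and Ephb1 were lower (-0.28 and -0.16, Ephb1 not with matched UMIs). Of 16 astrocyte identity genes 5 were higher, among them Fgfr3 and Gpc5 (0.34 ± 0.04 and 0.32 ± 0.05), and 4 were lower, among them Sox9 (-0.34 ± 0.06). In all Gfap-negative nuclei, with the clusters of other markers included, 2 identity genes were higher and 10 lower, where 8.38% of all genes were higher and 8.92% lower. Of 10 interferon-stimulated genes tested in the retained nuclei 5 were lower, including Stat2 (-0.51) and Ddx58 (-0.69), and none was higher. These too could enter the test through their level in Gfap-positive nuclei alone. The counts that follow are again of the retained nuclei, beside the same 6.67% and 8.15% over all genes. Of 16 lipid efflux genes 4 were lower, and of 22 genes of cholesterol synthesis and uptake 2 were higher, among them Dhcr7, which is near the background. Of 16 clock genes 5 were higher, among them Npas2 (0.40), and 1 was lower.

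**Figure D3:**
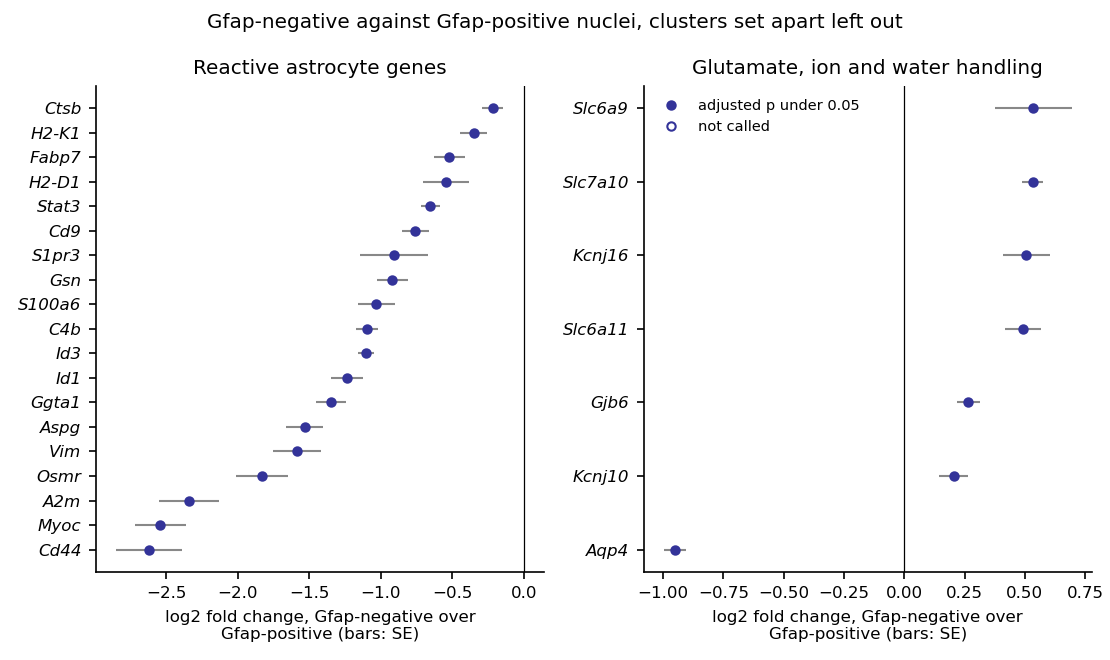
Log2 fold change, Gfap-negative over Gfap-positive retained nuclei, with its standard error, for the 19 tested reactive genes and for the transporter and channel genes named above. Filled points passed an adjusted p of 0.05 (edgeR, library as a block). All 19 reactive genes lie left of 0, and of the transporter and channel genes shown Aqp4 alone lies left of 0.

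In the full set of Gfap-negative nuclei tau changed few genes. Over both genotypes 75 of 13062 genes passed edgeR's test (0.574%), 69 higher (0.528%) and 6 lower (0.0459%) in Tau+. Leaving out single libraries gave between 20 genes (without replicate 3 of Ch25h-/- Tau-) and 117 (without replicate 1 of Ch25h+/+ Tau-). By genotype 3 genes passed in Ch25h+/+ (0.023%) and 1 in Ch25h-/- (0.00766%), and fits that left out a library gave 0 to 47 and 0 to 1. DESeq2 called 165 genes over both genotypes (1.26%), 137 in Ch25h+/+ (1.05%) and 3 in Ch25h-/- (0.023%). Kif6, a kinesin of motile cilia (chr17:49615136-49909847 in mm10), had a lowest, median and highest library of 10.8, 11.7 and 15.7 CPM in Tau- and 22.3, 27.5 and 43.3 CPM in Tau+, without overlap. Its log2 fold change was 1.18 ± 0.14 (adjusted p = 0.0012). The axonemal dynein gene Dnah10 stood at 1.35, 3.68 and 6.88 CPM and at 7.38, 12.5 and 19.3 CPM (1.73 ± 0.29, adjusted p = 0.0108), and the ciliary genes Cfap299 (1.52 ± 0.24, adjusted p = 0.0119) and Rgs22 (1.30 ± 0.22, adjusted p = 0.0108) were higher as well. Dnah12, Cfap299, Tmem212 and Rgs22 also led cluster 12, the ependymal-marker cluster set apart. In the retained nuclei Kif6 stood at 2.25, 4.87 and 6.9 CPM in Tau- and 3.63, 7.8 and 12.8 CPM in Tau+, and Dnah10 at 6 UMIs in all Tau- and 15 in all Tau+ libraries. The part of cells of other types in these calls beyond that was not tested.

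Gm43049, Pltp, Osmr, Irf9, Tkt and Lsm6 were also called in all Gfap-negative nuclei. Gm43049, an unnamed transcript on chromosome 3 (140692038-140760704 in mm10), had no UMI in any Tau- library and 182 UMIs over the Tau+ libraries. Against a floor of 3 counts over the Tau- group it was at least 76.7-fold higher, and at least 27.7-fold higher in the retained nuclei with 61 UMIs. Earlier results of these data linked this transcript to the tau line. A mark of the line and a response to tau cannot be told apart here. Pltp, the phospholipid transfer protein gene and a target of LXR, stood at 4.64, 13.6 and 19.7 CPM in Tau- and 24.1, 27.4 and 40.9 CPM in Tau+, without overlap (1.13 ± 0.21, adjusted p = 0.0204). Osmr rose by 1.05 ± 0.22 (adjusted p = 0.0336) and the interferon response factor gene Irf9 by 0.91 ± 0.19 (adjusted p = 0.0408), both with overlapping ranges. In the retained nuclei none of the 3 passed: Pltp was at 0.77 ± 0.28 (adjusted p = 0.453), with levels of 3.92, 7.25 and 12.4 CPM in Tau- and 2.36, 12.4 and 23.4 CPM in Tau+ that overlapped, Osmr at 0.83 ± 0.27 (adjusted p = 0.347) and Irf9 at 0.93 ± 0.20 (adjusted p = 0.0842). The fibroblast-marker clusters left out there held a mean of 8.40% of Gfap-negative nuclei in Tau- and 15.2% in Tau+ libraries, and their part in these calls was not tested. Osmr and Irf9 passed in 6 and 5 of 16 fits that each left out a library, Pltp in 12 and Kif6 in 16. Tkt, the transketolase gene of the pentose phosphate pathway, fell by 0.69 ± 0.12 (adjusted p = 0.0165) and passed in all 16 such fits, and Lsm6 fell by 0.61 ± 0.13 (adjusted p = 0.0478) but passed in none of them.

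In the retained nuclei no gene passed for tau over both genotypes by edgeR (0 of 11281, 0%), although 886 had an unadjusted p under 0.05. Within Ch25h+/+ and Ch25h-/- the counts were also 0, with 849 and 498 genes under an unadjusted p of 0.05, and DESeq2 called 1 (0.00887%) and 0. Over both genotypes DESeq2 called 44 of 11279 (0.39%), 37 higher (0.328%) and 7 lower (0.0621%). With replicates 1 and 2 against 3 and 4 as a term edgeR called 35 (0.31%), 21 higher and 14 lower. The lowest p-values belonged to Sulf1, Tkt and Rnf213. Sulf1, which encodes an enzyme that trims heparan sulfate (chr1:12692277-12861192 in mm10), stood at 3.09, 4.26 and 11.7 CPM in Tau- and 9.53, 15.6 and 26.5 CPM in Tau+ (1.72 ± 0.29, edgeR adjusted p = 0.0519, DESeq2 adjusted p = 0.000764). Tkt (chr14:30548359-30574720) stood at 47.9, 61.5 and 102 CPM against 31.4, 40 and 53 CPM (-0.70 ± 0.13, adjusted p = 0.0596 by edgeR). The interferon-stimulated gene Rnf213 (chr11:119393100-119487418) stood at 32.2, 40.7 and 49.5 CPM against 46.3, 62.2 and 82 CPM (0.65 ± 0.12, adjusted p = 0.0739 by edgeR). For each of these 3 genes the highest of one tau state overlapped the lowest of the other.

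Genes of interest to the study gave the following values in the retained nuclei. C4b stood at 22.8, 39.9 and 88.9 CPM in Tau- and 65.4, 120 and 254 CPM in Tau+, with overlap, and missed the threshold (1.5 ± 0.32, adjusted p = 0.141 by edgeR). Serpina3n, the reactive serpin, had 8 UMIs over the Tau- and 48 over the Tau+ libraries. This was 3 against 28 in Ch25h+/+ and 5 against 20 in Ch25h-/-. In all Gfap-negative nuclei a Serpina3n UMI was found in a mean of 0.196% (Ch25h+/+ Tau-) to 1.54% (Ch25h+/+ Tau+) of nuclei by group, below the 1.99% to 2.78% of Slc17a7-positive excitatory nuclei, which are deeper (a median of 7620 to 10944 UMIs). The depths differ, so the share in excitatory nuclei is no measure of background in the astrocyte nuclei. It was 2.11% and 1.99% in Tau- and 2.51% and 2.78% in Tau+ for Ch25h+/+ and Ch25h-/-. In Gfap-negative nuclei of Ch25h-/- the means were 0.202% without and 1.14% with tau. The part of background in the Serpina3n counts was not tested, and with so few UMIs no change is read from them. Apoe stood at 835, 2950.2 and 4049.7 CPM in Tau- and 2032, 3351 and 4179 CPM in Tau+, a log2 fold change of 0.10, and the 835 CPM belonged to replicate 3 of Ch25h+/+ Tau- alone. Clu, Aqp4, Mapt and Prnp had log2 fold changes of 0.04, -0.11, 0.11 and -0.19, and none passed.

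Whole lists show where the values below the threshold lay. A gene could enter these tests through its level in Tau+ or in Tau- libraries alone, which favours a fold toward that state. The counts therefore describe the tested genes and not the lists. Of 22 interferon-stimulated genes tested in the retained Gfap-negative nuclei 0 passed, 21 had a positive fold change over both genotypes and 18 an unadjusted p under 0.05, with a median of 0.95. Over all genes tested 49.3% had a positive fold, 7.85% an unadjusted p under 0.05 and the median was -0.0031. The retained nuclei include cluster 13, the one led by interferon-stimulated genes, which held a mean of 0.277% of Gfap-negative nuclei in Tau- and 2.24% in Tau+ libraries. Its part in these values was not tested. In retained Gfap-positive nuclei 15 of 23 passed, all higher, with a median of 1.54, where 2.16% of all genes tested were called higher. Of 26 reactive genes 0 passed in Gfap-negative nuclei, 17 had a positive fold and the median was 0.21, while in Gfap-positive nuclei 14 of 22 were higher with a median of 1.18. Of 25 genes of cholesterol synthesis and uptake 0 passed, 3 had a positive fold and the median was -0.30, and in Gfap-positive nuclei 8 of 22 were lower with a median of -0.67, where 0.983% of all genes were called lower. The identity list and the list of glutamate, ion and water handling had medians of -0.11 and -0.12 and no gene past the threshold. The numbers of nuclei differed between the sides, so these counts do not compare them, and the difference between them is given with its own test below.

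The difference between tau's effects on the Gfap-negative and Gfap-positive side of the same libraries was tested last. The sides were split by Gfap, a reactive gene whose own counts moved with tau, so a nucleus in which Gfap rises changes sides. Values below therefore describe the 2 sides as split, and a different response of the same cells cannot be told apart from a shift of nuclei between the sides. The difference of the log2 fold changes, Gfap-negative minus Gfap-positive, was tested as the interaction of side and tau state with the library as a block. It passed for 33 of 13090 genes in all nuclei (0.252%, 3 higher and 30 lower) and for 121 of 10899 in the retained nuclei (1.11%, 62 higher and 59 lower). Without replicate 1 of Ch25h-/- Tau+ the retained nuclei gave 58 genes, without replicate 3 of the same group 213, and with Gfap-positive nuclei matched on UMIs 36. The split by direction changed as well, to 13 higher and 23 lower with matched UMIs and to 13 higher and 85 lower against nuclei with 3 or more Gfap UMIs. A positive difference means that the gene rose more, or fell less, with tau in Gfap-negative nuclei.

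Of 28 reactive genes tested, a group to which Gfap itself belongs, 7 differed, all 7 with a negative difference, where 0.541% of all genes had one. A reactive gene could enter this test through its level in Tau+ Gfap-positive nuclei alone. That favours a negative difference, so the count describes the tested genes and not the list. In Gfap-positive nuclei 6 of these 7 (all but Cp) passed as higher with tau. In the retained Gfap-negative nuclei 0 of 11281 genes passed, so the lack of these 7 there is not particular to them. Of these 7, Osmr passed in the full set of Gfap-negative nuclei. Cd44 (chr2:102811141-102901665 in mm10) stood at 3.86, 6.45 and 8.44 CPM in the lowest, median and highest Tau- library and at 2.93, 6.78 and 16.6 CPM in Tau+ libraries of Gfap-negative nuclei. In Gfap-positive nuclei it went from 6.37, 20 and 28.6 CPM to 31.3, 74.9 and 116 CPM, without overlap. The log2 fold changes were 0.18 ± 0.31 and 2.06 ± 0.29, and their difference was -1.84 ± 0.32 (adjusted p = 0.000168, and 0.00459 with matched UMIs). Osmr (chr15:6813577-6874969) went from 8.42, 10.9 and 17.2 CPM to 9.99, 18.4 and 40.9 CPM in Gfap-negative nuclei. In Gfap-positive nuclei it went from 12.7, 22.6 and 28.9 CPM to 17.8, 114 and 135 CPM, a difference of -1.29 ± 0.26 (adjusted p = 0.00186, and 0.0506 with matched UMIs). The 2 low Tau+ libraries of Gfap-positive nuclei, at 17.8 and 35.5 CPM, were both replicate 3, the libraries with the largest shares of nuclei without Gfap among Tau+. Cd44 and Osmr passed in all 16 fits that left out a library.

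The other reactive genes were less firm. Vim stayed at a median of 10.4 CPM in both tau states in Gfap-negative nuclei and went from 14.7 to 40.4 CPM in Gfap-positive nuclei (difference -1.28 ± 0.30, adjusted p = 0.0106, and 0.102 without replicate 1 of Ch25h-/- Tau+). A2m (-1.37 ± 0.32, adjusted p = 0.00979), the ceruloplasmin gene Cp (-1.84 ± 0.44, adjusted p = 0.0149), S1pr3 (-1.34 ± 0.36, adjusted p = 0.0388) and Stat3 (-0.43 ± 0.12, adjusted p = 0.043) completed the 7. A2m and Cp passed in 14 of 16 fits that left out a library, and S1pr3 and Stat3 in 6. With Gfap-positive nuclei matched on UMIs, Cd44 alone of the 7 passed. C4b did not follow them. Its log2 fold changes were 1.5 in Gfap-negative and 1.41 in Gfap-positive nuclei, and the difference of 0.13 ± 0.17 did not pass (adjusted p = 0.885).

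**Figure D4:**
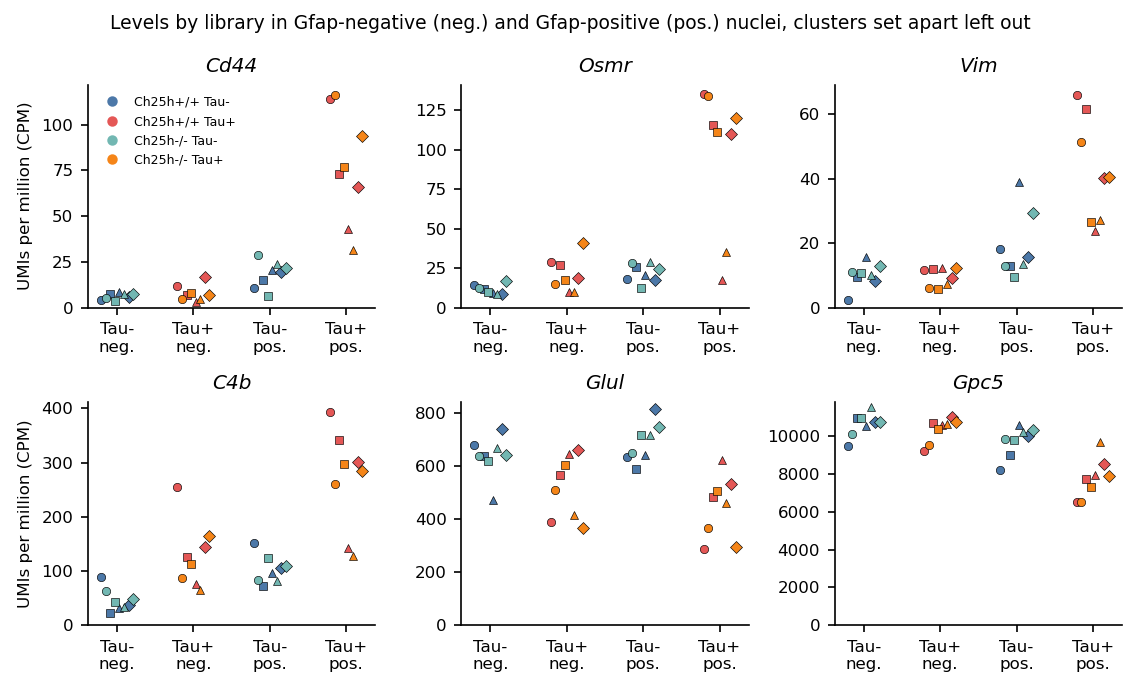
CPM of Cd44, Osmr, Vim, C4b, Glul and Gpc5 in each library, for retained Gfap-negative and Gfap-positive nuclei and by tau state and genotype. Circle, square, triangle and diamond are replicates 1, 2, 3 and 4. Cd44 is higher with tau among Gfap-positive nuclei while its Gfap-negative libraries stay at or below 16.6 CPM. C4b has a positive fold change with tau on both sides, but among Gfap-negative nuclei the tau states overlap and it did not pass edgeR's test.

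Glul, Gpc5 and Slc1a2, genes of the astrocyte's support of synapses, were among the 62 with a positive difference, with fold changes nearer 0 in Gfap-negative than in Gfap-positive nuclei. Glul encodes glutamine synthetase (chr1:153899944-153909723 in mm10). It went from 474, 641 and 742 CPM in Tau- to 368, 538 and 660 CPM in Tau+ in Gfap-negative nuclei. In Gfap-positive nuclei it went from 589, 685 and 817 CPM to 288, 472 and 624 CPM. The difference was 0.38 ± 0.07 (adjusted p = 0.0023), with log2 fold changes of -0.30 and -0.65. Gpc5, a glypican gene (chr14:115092215-116525179), had medians of 10776 and 10653 CPM in Gfap-negative nuclei and of 9946 and 7828 CPM in Gfap-positive nuclei (difference 0.30 ± 0.05, adjusted p = 7.89e-05). The glutamate transporter gene Slc1a2 differed by 0.17 ± 0.04 (adjusted p = 0.0255, passing in 10 of 16 fits without a library). These were the 3 of 16 identity genes that differed.

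Of 23 genes of synapse formation and engulfment 7 differed, all positive. They included Mertk (0.31 ± 0.06, adjusted p = 0.000665), the proteoglycan gene Bcan (0.34 ± 0.07, adjusted p = 0.00739), Ncan (0.47) and Mfge8 (0.41). The metabotropic glutamate receptor gene Grm3 (0.29 ± 0.06, adjusted p = 0.00495) and the adhesion gene Lsamp (0.29 ± 0.04, adjusted p = 6.44e-06) differed in the same direction, as did Auts2 (0.36 ± 0.06, adjusted p = 7.89e-05) and the transporter gene Slco1c1 (0.39 ± 0.07, adjusted p = 0.000168). Of 25 genes of cholesterol synthesis and uptake 2 differed, the sterol enzyme genes Msmo1 (0.50 ± 0.10, adjusted p = 0.00397) and Hmgcs1 (0.59 ± 0.15, adjusted p = 0.0301). Of 28 genes of energy metabolism 2 differed, among them the fatty acid activation gene Acsl3 (0.28 ± 0.06, adjusted p = 0.00446). Of all genes tested 0.569% had a positive and 0.541% a negative difference past the threshold. Hmgcs1 had log2 fold changes of -0.27 in Gfap-negative and -0.89 in Gfap-positive nuclei and passed in 9 of 16 fits without a library. In Gfap-negative nuclei its level in replicate 1 of Ch25h-/- Tau+ was 130 CPM, against 48.1 to 53.2 CPM in the rest of that group. The difference for Lsamp, Gpc5, Auts2, Slco1c1, Mertk, Glul, Acsl3 and Grm3 also passed with Gfap-positive nuclei matched on UMIs, and that for Slc1a2, Bcan, Msmo1 and Hmgcs1 did not.

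**Figure D5:**
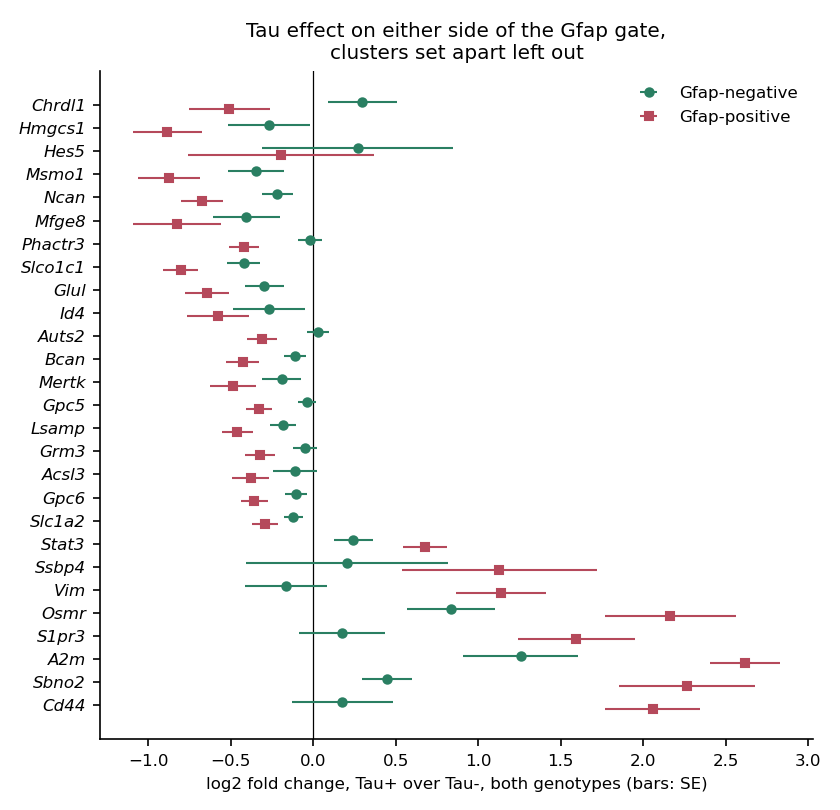
Log2 fold change of Tau+ over Tau- with its standard error in retained Gfap-negative and Gfap-positive nuclei, for 27 genes whose difference between the sides passed an adjusted p of 0.05. Reactive genes such as Cd44 and Osmr lie farther right on the Gfap-positive side, and genes such as Glul and Gpc5 lie farther left there.

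Gbp5 and Sbno2 were picked from the genes with a difference after their values had been seen, because their promoters hold a motif known for STAT factors. Gbp5, which encodes an interferon-induced GTPase, had 32 UMIs in Tau- and 25 in Tau+ Gfap-negative nuclei, and 7 and 239 UMIs in Gfap-positive nuclei (difference -3.73 ± 0.76, adjusted p = 0.00422). Such a gene could enter the test through Tau+ Gfap-positive nuclei alone, and its difference rests on few counts elsewhere. Sbno2, which encodes a transcriptional regulator induced by STAT3, went from 14.6, 18.8 and 25.7 CPM to 20.5, 25.1 and 38.9 CPM in Gfap-negative nuclei. In Gfap-positive nuclei it went from 17.1, 25.8 and 41.4 CPM to 27.2, 114 and 181 CPM (difference -1.75 ± 0.35, adjusted p = 0.0191, passing in 11 of 16 fits without a library). The motif searched was TTCNNNGAA, which reads the same on both strands, in the 250 bases before each gene's start in RefSeq (GRCm38.p6, the mm10 assembly). It stood in 2 of 46 such promoters of genes with a negative difference (4.35%), in 3 of 41 with a positive difference (7.32%), in 5.54% of the promoters of all genes tested and in 7.18% of all promoters. The share among genes with a negative difference was thus no higher than among all promoters. Of the 7 reactive genes that differed, 6 had a promoter in the table and none held the motif. The promoters of Gbp5 (chr3:142496684-142496933, plus strand) and Sbno2 (chr10:80102703-80102952, minus strand) are printed to show the matches, in capitals.
Gbp5: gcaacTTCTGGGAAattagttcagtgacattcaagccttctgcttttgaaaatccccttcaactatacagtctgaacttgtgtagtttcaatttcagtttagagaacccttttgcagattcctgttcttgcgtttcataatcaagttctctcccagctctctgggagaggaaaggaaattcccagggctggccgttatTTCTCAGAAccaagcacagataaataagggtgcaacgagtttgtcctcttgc
Sbno2: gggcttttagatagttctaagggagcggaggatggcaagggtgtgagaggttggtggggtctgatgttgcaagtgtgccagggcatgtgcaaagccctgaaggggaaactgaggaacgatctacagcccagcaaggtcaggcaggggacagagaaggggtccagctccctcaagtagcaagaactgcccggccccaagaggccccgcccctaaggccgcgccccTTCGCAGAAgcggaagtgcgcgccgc

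The loss of Ch25h changed no gene past the threshold in Gfap-negative nuclei, with tau or without. In the retained nuclei 0 of 11281 genes passed by edgeR (0%) and 0 of 11279 by DESeq2 in Tau+, in Tau- and for the interaction of genotype and tau. At an unadjusted p under 0.05 edgeR gave 416, 369 and 478 genes in that order and DESeq2 272, 233 and 293. In all Gfap-negative nuclei the counts past the threshold were also 0 by both tools, with 411, 459 and 669 genes under an unadjusted p of 0.05 by edgeR and 293, 370 and 570 by DESeq2. The lowest p in the retained nuclei belonged to the ceramidase gene Asah2 in Tau+ (log2 fold change -1.45, edgeR adjusted p = 0.938) and in Tau- to Abi3bp, Me3 and Mobp (1.27, 0.69 and -1.42, edgeR adjusted p = 0.963).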

How the data were processed

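The deposited matrices hold UMI counts per gene and barcode, made by the authors with Cell Ranger 4, per the file headers. The submitters' processing notes name Cell Ranger 3.1.0, Seurat and mm10. Whether intronic reads were counted is not given in the sources used here. Coordinates are GENCODE's (release M21, mm10). RNA of nuclei was measured, and sequencing depth is given with the results.

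UMI counts were summed per library, the replicate, and tested with edgeR 4.0.16 (quasi-likelihood, TMM, filterByExpr, Benjamini-Hochberg adjustment over all genes, threshold 0.05) over the 4 groups together. DESeq2 1.42.0 was an alternative. Sides of one library were compared with the library as a block. Shares were tested by two-sided exact permutation. Clusters came from scanpy 1.11.5 and leidenalg 0.10.2 (2000 variable genes, 30 components, 20 neighbours, resolution 0.6). Doublets were predicted with Scrublet, at 0.8% per 1000 nuclei, and kept unless stated. Scripts were tested on simulated data.

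The nuclei and gene lists were chosen with earlier results of these data known. Named genes are Ch25h, Prnp, Mapt, Apoe, Clu, Serpina3n, C4b and Aqp4, up to 10 per direction with the largest change among genes past the threshold without overlap whose mean was at least 10 UMIs per library, list members past the threshold, or else the 3 lowest p. The retained clusters, Gbp5, Sbno2 and the promoter search were chosen after seeing the data. Replicate numbers follow deposition order and pair nothing. Values of a few genes are not reported here.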

Additional observations from a re-analysis of the deposited data

Results flagged for a closer look

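The test of the difference of tau effects between Gfap-negative and Gfap-positive astrocytes called 33 genes in all nuclei and 121 genes in the retained clusters, with sides split by Gfap, which itself moved with tau. Cd44 and Osmr, with a negative difference in the retained nuclei, and Glul, Gpc5 and Lsamp, with a positive difference, are described above.

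Single libraries stood far from the other 3 of their group for 6 of 164 groups examined (3.66%), and chance flags about 1 in 20. Kif6 was at 15.3 CPM in replicate 4 of Ch25h-/- Tau- and at 11 to 11.7 CPM in the others, in all Gfap-negative nuclei. Lsm6 was at 15.9 CPM in replicate 2 of Ch25h+/+ Tau- and at 18.7 to 19.0 CPM in the others. In the retained nuclei Id3 was at 133 CPM in replicate 1 of Ch25h-/- Tau+ and at 90.8 to 94.6 CPM in the others. In that same library Hmgcs1 was at 130.0 CPM, against 48.1 to 53.2 CPM. Slc6a11 was at 409 CPM in replicate 3 of Ch25h+/+ Tau- and at 297 to 309 CPM in the others. Gfap-negative astrocytes made up 8.69% of all nuclei in replicate 3 of Ch25h+/+ Tau+ and 5.85% to 6.30% in the others.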

How the results depend on the processing

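No paired analysis was possible because the labels number no replicates, and numbers given in deposition order pair no single mice across groups. The split of replicates 1 and 2 against 3 and 4, on opposite sides of the first principal component, was fitted as a term instead. For sums over all nuclei that component held 47.3% of the variance left within groups after group means were taken out. Direction under the alternatives was followed for the shares and for named genes, and none that passed its test reversed. Other genes past the threshold were not followed singly. The fall of the share without Gfap over both genotypes was -21.8 points in replicates 1 and 2 alone and -13.7 points in replicates 3 and 4 alone, without overlap in either (exact permutation p = 0.0556, the smallest that 36 arrangements allow, so neither could pass after adjustment, with adjusted p = 0.556 and 0.278), and -20.1 to -16.2 points without each library (-23.3 to -18.6 in the retained clusters). The effect of Ch25h loss in Tau- on this share was 1.05 points after thinning and 0.933 points in replicates 1 and 2 alone. With libraries left out it ran from -1.46 to 1.29 points (retained clusters -3.50 to -0.233), and in Tau+ from 2.96 to 10.9 (retained 3.22 to 12.7). The tau difference was -25.7 to -17.8 points in Ch25h+/+ (retained -30.6 to -21.2) and -17.0 to -13.3 in Ch25h-/- (retained -19.6 to -13.7). As a share of all nuclei the leave-out values were -2.54 to -1.57 points for tau over both genotypes (retained -2.65 to -1.75), -2.16 to -0.548 in Ch25h+/+ (retained -2.52 to -1.12), -3.86 to -1.92 in Ch25h-/- (retained -3.50 to -1.69), -1.35 to -0.406 for loss in Tau+ (retained -0.961 to -0.0531) and -0.348 to 1.59 in Tau- (retained -0.647 to 1.16). In the retained clusters without replicate 1 of Ch25h-/- Tau- the first of these passed (adjusted p = 0.0306, exact permutation).

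Counts of genes for tau over both genotypes (75 in all nuclei) were 7 and 14 on each side of the first principal component alone, 115 with other-type markers at 0 UMIs, 21 without predicted doublets, 0 in the retained clusters and 165 with DESeq2. Left-out libraries gave 20 (without replicate 3 of Ch25h-/- Tau-) to 117 (without replicate 1 of Ch25h+/+ Tau-). In the retained clusters they were 35 with replicates 1 and 2 against 3 and 4 as a term, 15 and 17 in each pair of replicates alone, 1 with upper-quartile scaling, 44 with DESeq2 and 0 to 27 with each library left out, 27 without replicate 3 of Ch25h+/+ Tau+. For tau in Ch25h+/+ (3 genes) they were 13 with the component's side as a term, 28 on its first side alone, 15 with other-type markers at 0 UMIs, 0 without doublets, 0 in the retained clusters, 137 with DESeq2 and 0 to 47 with libraries left out, 47 without replicate 1 of Ch25h+/+ Tau-. In the retained clusters they were 1 with the replicate term, 7 in replicates 3 and 4 alone, 1 with DESeq2 and 0 to 3 with libraries left out. For tau in Ch25h-/- (1 gene) they were 14 with other-type markers at 0 UMIs, 0 without doublets, 0 in the retained clusters, 3 with DESeq2 and 0 to 1 with libraries left out, and in the retained clusters 6 and 3 in each pair of replicates and 0 to 9. Ch25h loss gave 4 genes in Tau+ on the second side of the component, 9 in Tau- on its first side and 1 in replicates 1 and 2 of the retained clusters. The interaction gave 1 gene on the first side and 1 in replicates 1 and 2 of the retained clusters. With libraries left out, loss and interaction gave 0 to 0.

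Gfap-negative against Gfap-positive gave 1767 to 2060 genes with libraries left out, and 1204 to 1406 in the retained clusters. Upper-quartile scaling moved the split there from 624 higher and 763 lower to 757 and 652. The difference of tau effects (33) gave 79 genes against nuclei with 3 or more Gfap UMIs, 121 in the retained clusters, and 6 (without replicate 3 of Ch25h+/+ Tau-) to 67 (without replicate 3 of Ch25h-/- Tau+) with libraries left out. In the retained clusters it gave 36 with matched UMIs (13 higher and 23 lower), 13 higher and 85 lower against nuclei with 3 or more Gfap UMIs, and 58 to 213 with libraries left out. For counts of genes the cause of these changes was not tested.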
